A study of Mus musculus with 4 samples.

Results

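The neurotrophin genes examined here are the ligands Bdnf and Ntf3, the tyrosine kinase receptors Ntrk2 (TrkB) and Ntrk3 (TrkC), and the non-Trk receptors Ngfr (p75NTR) and Sort1 (sortilin). They were chosen by gene symbol, with earlier results of these data known. Of the 6 genes, 5 had a probe set carrying their symbol alone, each exactly 1, out of 19938 genes named in this way. No probe set was named Ntf3 in the gene table used, so that Ntf3 was not analysed here. The RNA came from the pontine nucleus of ICR mice, with no genetic change or treatment in any group. Embryonic day 17.5 (E17.5) was a pool of 27 mice, postnatal day 1 (P1) one of 16, postnatal day 5 (P5) one of 13 and postnatal day 14 (P14) one of 12. Each pool was hybridised to 1 Affymetrix array, and the values are normalised signals on the log2 scale as deposited.

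Neurotrophins are secreted growth factors that keep neurons alive and shape their axons and synapses. BDNF binds TrkB, neurotrophin-3 binds TrkC, and the Trk receptors signal through the Ras and ERK kinases, PI3 kinase and phospholipase C gamma. The uncleaved precursors, the proneurotrophins, bind p75NTR together with sortilin, a pairing best known for promoting cell death, and sortilin also sorts proBDNF inside the cell. The neurons of the pontine nucleus send mossy fibres to the cerebellum, where granule cells express TrkB and TrkC.

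With 1 array per age there was no replicate and no test, and the number of arrays limits the precision of each difference. The only spread the files offer is the one among several probe sets of a gene, here over 645 genes with 1794 probe sets. Its standard deviation (SD) for a difference was 0.118 for P1 minus E17.5, 0.176 for P5 minus P1, 0.14 for P14 minus P5, 0.134 for P14 minus E17.5, 0.183 for P5 minus E17.5 and 0.104 for P14 minus P1. A difference beyond 2 SD is called larger than this spread below; that says nothing of the spread between pools of mice. Such differences were common: of the 10901 genes past a level filter (a highest array of at least 8.41, the median of all named probe sets), 36.1% were beyond 2 SD for P1 minus E17.5, 50.9% for P5 minus P1, 48.3% for P14 minus P5, 51.9% for P14 minus E17.5, 54.3% for P5 minus E17.5 and 40.2% for P14 minus P1. Because the tissue was taken in bulk, fewer cells of a type and less RNA per cell cannot be told apart.

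The arrays labelled P5 and P14 went against the order of their ages. Mog, a protein of mature myelin, had a level of 7.18 at E17.5, 7.39 at P1, 12.91 on the P5-labelled array and 8.27 on the P14-labelled array. In 63.0% of the genes past the filter the value labelled P14 lay between P1 and the P5-labelled array. The labels are kept as deposited, and values are also given without each of these arrays. Of 8 markers of pontine and rhombic lip neurons, 7 passed the filter. Barhl1, a factor of rhombic lip neurons, stood at 12.23, 11.79, 10.83 and 11.61 in the order of the labelled ages. Slc17a6, the glutamate transporter VGLUT2, stood at 11.44, 11.17, 11.57 and 11.49. Others of the list went differently. Slc17a7 was under 8.41 at E17.5, with 8.16, 9.38, 12.90 and 11.36, and Atoh1 was under it throughout, with 7.47, 6.76, 6.33 and 6.76.

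The Bdnf gene lies on the plus strand of chromosome 2 (109674700 to 109727043, GRCm38.p6) and has several promoters. At least 1 of these answers to neuronal activity through the factor CREB. The single Bdnf probe set is paired with 11 RefSeq mRNAs, so that the level below cannot be assigned to a promoter. RefSeq (GRCm38.p6) gave 11 promoter windows for 4 of the 6 genes, of which 7 belong to Bdnf, 2 to Ntf3 and 1 each to Ngfr and Ntrk2. The motifs below were sought by exact match, so sites that differ from them were not counted. In the 250 bases before each start, the CREB core motif TGACG (either strand) was found in 1 of the 7 Bdnf windows, with its first base 35 bases before the start, and in no window of the other genes; it was found in 17.77% of all 32851 windows. The GC box GGGCGG occurred in 2 of the 7 Bdnf windows, in both Ntf3 windows and at 4 places in the Ngfr window, and in 32.74% of all windows. The E-box CACGTG occurred in 1 Ntf3 window (6.02% of all), and the TATA box TATAAA in none (12.37% of all); no match of one motif overlapped another. The Bdnf window with the CREB core and the Ngfr window with its GC boxes are shown because they hold the motifs described, with the motif in capitals (CGTCA is TGACG read on the other strand, and CCGCCC is GGGCGG). They lie at chr2:109692186-109692435 on the plus strand and at chr11:95587699-95587948 on the minus strand.
Bdnf, window with the CREB core: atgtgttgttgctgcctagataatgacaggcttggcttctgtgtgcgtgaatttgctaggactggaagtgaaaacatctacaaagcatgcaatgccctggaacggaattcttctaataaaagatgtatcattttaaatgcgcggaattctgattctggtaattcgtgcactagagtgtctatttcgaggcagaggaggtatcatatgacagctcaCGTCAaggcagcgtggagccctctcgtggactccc
Ngfr: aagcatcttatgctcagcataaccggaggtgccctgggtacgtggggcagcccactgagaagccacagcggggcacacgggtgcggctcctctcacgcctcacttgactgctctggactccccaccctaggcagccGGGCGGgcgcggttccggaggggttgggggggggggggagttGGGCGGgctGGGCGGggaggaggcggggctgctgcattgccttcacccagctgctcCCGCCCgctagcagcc

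Bdnf, the ligand of TrkB, had its lowest level at E17.5. Its level was 7.89 at E17.5, 8.19 at P1, 8.57 on the P5-labelled array and 8.61 on the P14-labelled array. Each of the 2 later arrays was above both earlier ones, and the 2 later arrays differed from each other by 0.04, within the spread between probe sets. The difference was 0.30 for P1 minus E17.5, 0.38 for P5 minus P1 and 0.72 for P14 minus E17.5 (1.65-fold), all beyond 2 SD. Taken over probe sets of a similar level (means between 7.5 and 9), where the SD for P5 minus P1 was 0.228, the difference of 0.38 was within 2 SD. Scaled on the median of the genes past the filter, it was 0.27, within 2 SD on the pooled spread as well. A larger absolute difference than that of Bdnf between P14 and E17.5 was found in 11.6% of the genes past the filter. Bdnf was at or above 8.41 on 2 arrays alone, those labelled P5 and P14, and it passed the filter through them. Its E17.5 and P1 values lie under that level, and as background was not measured, the size of these differences is inexact. Each value lay above the one before it. Leaving out an array cannot change the order of the others in any gene, so it is no check of that order or of the labels. The range of Bdnf was 0.72 without the P5-labelled array and 0.68 without the P14-labelled array.

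Ntrk2, which encodes TrkB, was also lowest at E17.5. Its level was 11.00 at E17.5, 11.23 at P1, 11.56 on the P5-labelled array and 11.40 on the P14-labelled array. Steps between neighbouring labels were within 2 SD: 0.23 for P1 minus E17.5, 0.33 for P5 minus P1 and −0.16 for P14 minus P5. The first and second of these passed 2 SD under another scaling, at 0.26 with quantile normalisation (2 SD being 0.235) and 0.38 with median centring (2 SD being 0.352). Against E17.5 the differences were larger than the spread, at 0.56 for P5 (1.47-fold) and 0.40 for P14 (1.32-fold). Of the 5 genes, Ntrk2 was the only one whose value labelled P14 lay between P1 and the P5-labelled array. That place was the common one, found in 63.0% of all genes past the filter. The probe set is paired with 3 RefSeq mRNAs, and a level summed over transcripts does not separate the full-length kinase receptor of neurons from the truncated receptor that astrocytes make. Astrocyte markers differed on the same arrays: over the 12 genes of that list the median level was 9.45 at E17.5, 10.38 at P1, 11.90 on the P5-labelled array and 11.09 on the P14-labelled array. All 12 passed the filter, and their part in the Ntrk2 levels was not tested.

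Ntrk3, which encodes the neurotrophin-3 receptor TrkC, had its lowest level on the P5-labelled array. It had 9.69 at E17.5, 9.94 at P1, 9.37 on the P5-labelled array and 9.98 on the P14-labelled array, so that P5 was lowest and P1 and P14 were within 0.04 of each other. The difference was −0.57 for P5 minus P1 and 0.61 for P14 minus P5 (1.53-fold), both beyond 2 SD. P5 minus E17.5, at −0.32, was within 2 SD (0.366), though it was −0.38 when scaled on the median of the genes past the filter. P14 minus E17.5, at 0.29, was beyond 2 SD (0.269). For P1 minus E17.5 the difference was 0.25, just beyond 2 SD (0.235), and with median centring it was 0.22, within 2 SD. Without the P5-labelled array the range of Ntrk3 was 0.29 in place of 0.61, and without the P14-labelled array it was 0.57.

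Ngfr, which encodes the p75 receptor, had the widest range of the 5 genes, 0.83, and took it from the 2 doubted arrays. Its level was 8.56 at E17.5, 8.50 at P1, 7.99 on the P5-labelled array and 8.82 on the P14-labelled array. E17.5 and P1 differed by 0.06 in size, within the spread. P5 minus P1 was −0.51 and P14 minus P5 was 0.83 (1.78-fold), both beyond 2 SD. P14 minus P1, at 0.32, was beyond 2 SD too, while P14 minus E17.5, at 0.26, was within it (2 SD being 0.269) but passed it with quantile normalisation, at 0.28. The P5 value lies under 8.41, so the size of the P14 minus P5 difference is inexact. Without the P5-labelled array the range was 0.32, and without the P14-labelled array it was 0.57. A larger absolute difference for P14 minus P5 was found in 9.91% of the genes.

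p75NTR is also made by cholinergic neurons and by cells of the neural crest, so their markers were read on the same arrays. Of the 6 cholinergic and motor neuron markers, 5 were named and 2 passed the filter. Slc18a3, the vesicular acetylcholine transporter, had 10.01 at E17.5, 9.93 at P1 and 7.41 on the P5-labelled array, with the P14-labelled array 2.59 above that, and the choline transporter Slc5a7 had 10.31, 10.27, 8.40 and 10.12 in the order of the labelled ages. Both had their lowest value on the P5-labelled array, as Ngfr did. That place was not particular to them. It was held by 9 of 9 markers of immature neurons past the filter, 5 of 7 of pontine and rhombic lip neurons and 2 of 2 of monoaminergic neurons. Of the 12 astrocyte markers, 0 held it. The share of all genes lowest there was not counted. Chat, the enzyme that makes acetylcholine, stayed under 8.41 throughout, with 8.17, 8.14, 7.22 and 8.19. The Schwann cell and neural crest list had 5 of 7 members named, Ngfr among them. Cdh19 had 4.63, 4.53, 8.15 and 4.81 in the same order, Sox10, shared with oligodendrocytes, had 8.65, 9.45, 10.91 and 9.98, and Pmp22, a protein of peripheral myelin, had 9.83, 10.15, 11.03 and 10.76. These 3 were highest on the P5-labelled array, where Cdh19 still lay under 8.41. Egr2, a factor of myelinating Schwann cells, stayed under 8.41 and was lowest on the P5-labelled array, with 7.12, 6.94, 6.82 and 7.11. The part of either cell type in the Ngfr levels was not tested.

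Sort1, the sortilin gene, was highest at E17.5, where Bdnf was lowest. It had 10.86 at E17.5, 10.50 at P1, 10.58 on the P5-labelled array and 10.37 on the P14-labelled array, with E17.5 above the 3 postnatal arrays. The difference was −0.36 for P1 minus E17.5 (1.28-fold lower at P1) and −0.49 for P14 minus E17.5 (1.40-fold lower at P14), both beyond 2 SD. P5 minus E17.5, at −0.28, was within it. Among the postnatal arrays the differences were within it too, at 0.08 for P5 minus P1, −0.21 for P14 minus P5 and −0.13 for P14 minus P1. The highest of the 4 arrays stays highest when another is left out, so leaving out a doubted array is no check of that place. The range of Sort1 was 0.49 without the P5-labelled array and 0.36 without the P14-labelled array.

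**Figure D1:**
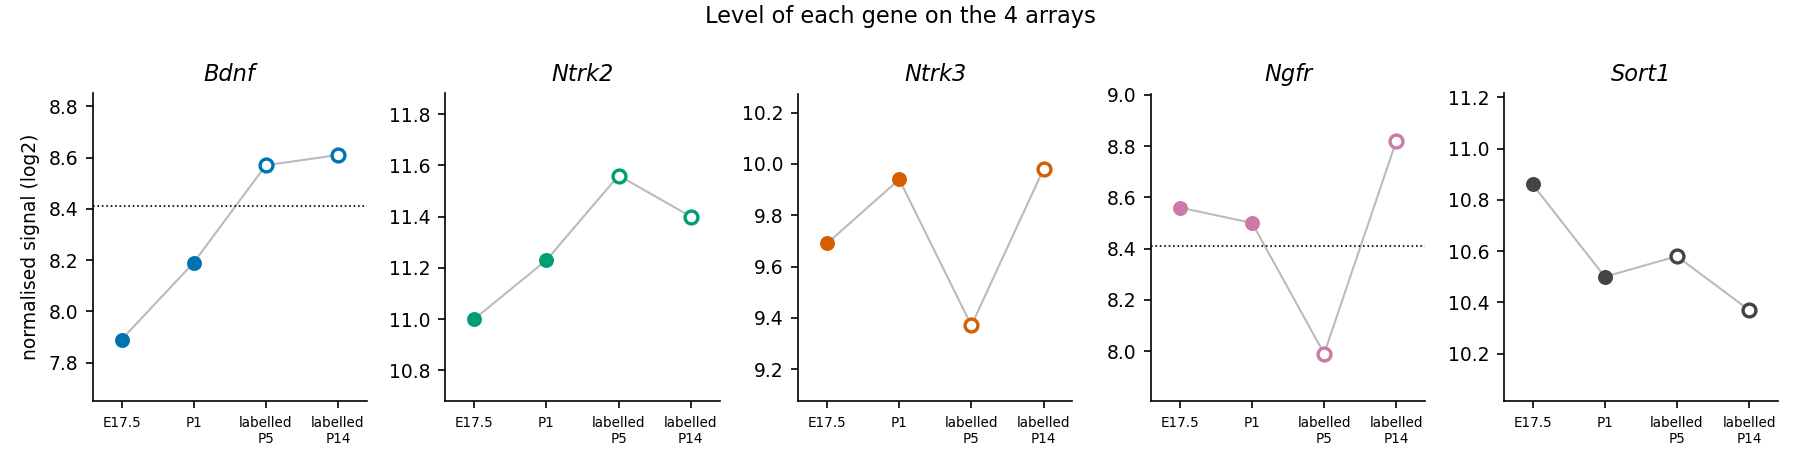
Normalised log2 signal of each gene (vertical axis, 1.2 units in every panel) on the 4 arrays in the order of their labelled ages, 1 point per array; open points mark the arrays labelled P5 and P14, and the dotted line is the level filter of 8.41. Bdnf and Ntrk2 are lowest at E17.5, Ntrk3 and Ngfr on the P5-labelled array, and Sort1 is highest at E17.5.

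None of the 5 genes was at least 2-fold apart (1 on the log2 scale) in any of the 6 pairs of arrays. Across the 10901 genes past the filter, the share at least 2-fold apart was 1.1% for P1 minus E17.5, 12.9% for P5 minus P1, 6.66% for P14 minus P5, 5.74% for P14 minus E17.5, 16.8% for P5 minus E17.5 and 1.47% for P14 minus P1. Read against these shares, a count of 0 in 5 genes is near the background. Nor had any of the 5 genes a 2-fold range over the 4 arrays, which 19.4% of all genes had; the median range of all genes was 0.53.

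At least 1.5-fold apart (0.585 on the log2 scale) were Ngfr and Ntrk3 for P14 minus P5, where 19.6% of all genes were, and Bdnf for both P14 minus E17.5 (18.2% of all genes) and P5 minus E17.5 (35.3%, Bdnf at 0.68). No member reached it for P1 minus E17.5 (5.92% of all genes), P5 minus P1 (30.5%) or P14 minus P1 (5.84%). These shares show that differences of the size seen in the 5 genes were common on these arrays. The median difference of the 5 genes was 0.23 for P1 minus E17.5, against −0.06 for all genes, and 0.29 for P14 minus E17.5, against −0.08. It was 0.08 for P5 minus P1, against 0.05, 0.04 for P14 minus P5, against −0.07, and 0.17 for P14 minus P1, against −0.01. For P5 minus E17.5 it was negative, −0.28 against −0.02.

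**Figure D2:**
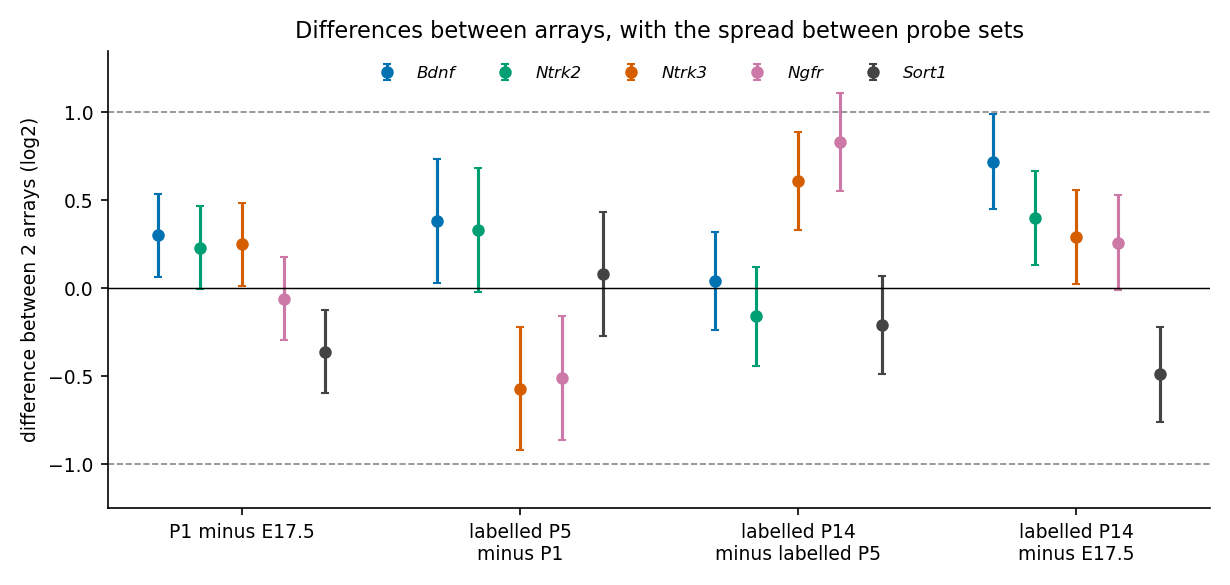
Difference between 2 arrays on the log2 scale (vertical axis) for the 5 genes in 4 pairs of arrays; bars are 2 SD either way of the spread among probe sets of a gene, not a replicate error, and dashed lines mark 2-fold. Ngfr at 0.83 for P14 minus P5 and Bdnf at 0.72 for P14 minus E17.5 are the largest, and no point reaches a dashed line.

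**Figure D3:**
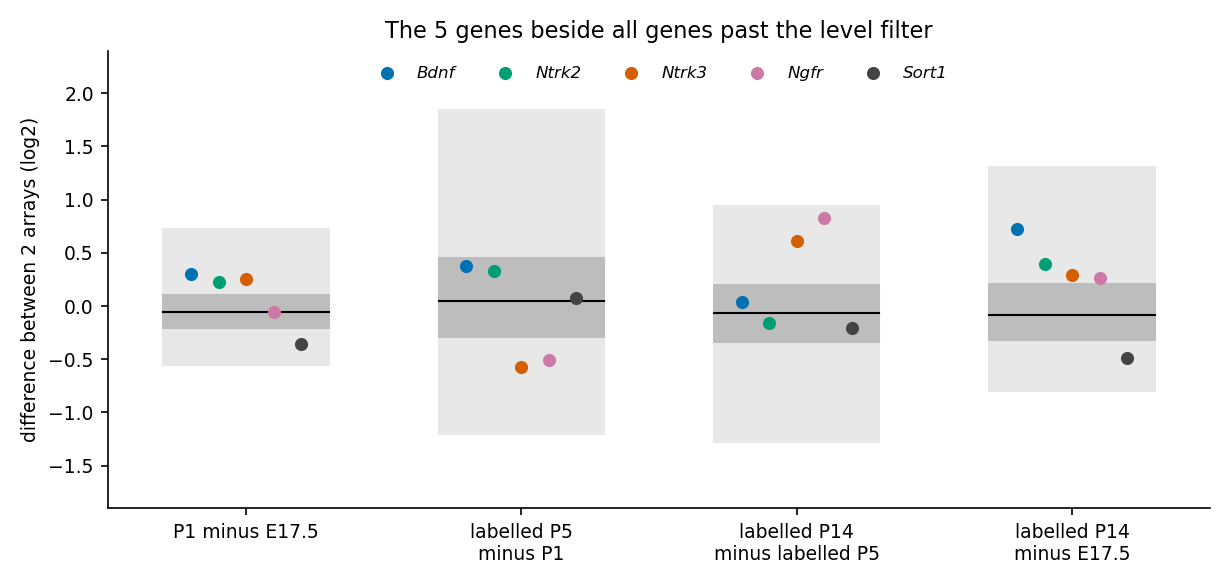
The same differences (points, log2 scale on the vertical axis) over the distribution of the 10901 genes past the filter, with the middle 50% of genes in dark grey, the middle 95% in light grey and the median as a line. All 5 genes lie inside the light band in each of the 4 pairs; for P1 minus E17.5 that band runs from −0.55 to 0.72.

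By the distance between profiles centred on their own mean over the 4 arrays, the 3 genes most like Ngfr were Cntn6, a contactin adhesion molecule of neurons (root mean square distance 0.043 on the log2 scale), Prp2 (0.046) and Cdh4, the adhesion molecule R-cadherin (0.051). Cntn6 had 9.18 at E17.5, 9.08 at P1, 8.58 on the P5-labelled array and 9.51 on the P14-labelled array. With 4 arrays such likeness is easily met: 40 genes lay within 0.1 of Ngfr.

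Of 6 further genes of the family named on the array, 5 passed the filter. Ntf5, the mouse gene of neurotrophin-4, another ligand of TrkB, stayed under the filter at 7.04, 6.82, 6.61 and 6.90 in the order of the labelled ages. The sortilin relatives went different ways. Sorl1, a sorting receptor of the same family, had 8.25 at E17.5, 8.23 at P1, 10.90 on the P5-labelled array and 8.64 on the P14-labelled array. Its difference for P5 minus P1 was 2.67, and the 3 other arrays lay within 0.41 of each other. Sorcs3 had 9.84, 9.65, 8.42 and 9.43 in the same order, a difference of −1.23 for P5 minus P1.

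Sorcs2, a partner of p75NTR in binding proBDNF, had 9.60, 9.58, 10.07 and 9.97, and Sorcs1 had 9.85, 10.41, 10.32 and 10.21, with no pair of arrays 2-fold apart in either gene. Nradd, a receptor related to p75NTR, had 9.45 at E17.5, 9.29 at P1, 7.90 on the P5-labelled array and 8.74 on the P14-labelled array (−1.39 for P5 minus P1). The P5 value lies under 8.41, so the size of this difference is inexact. Nradd was thus lowest on the same array as Ngfr. Of the 5 genes of this list past the filter, 2 were lowest on that array and 2 were highest. Without the P5-labelled array, no gene of this list was 2-fold apart between any of the 3 remaining arrays.

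**Figure D4:**
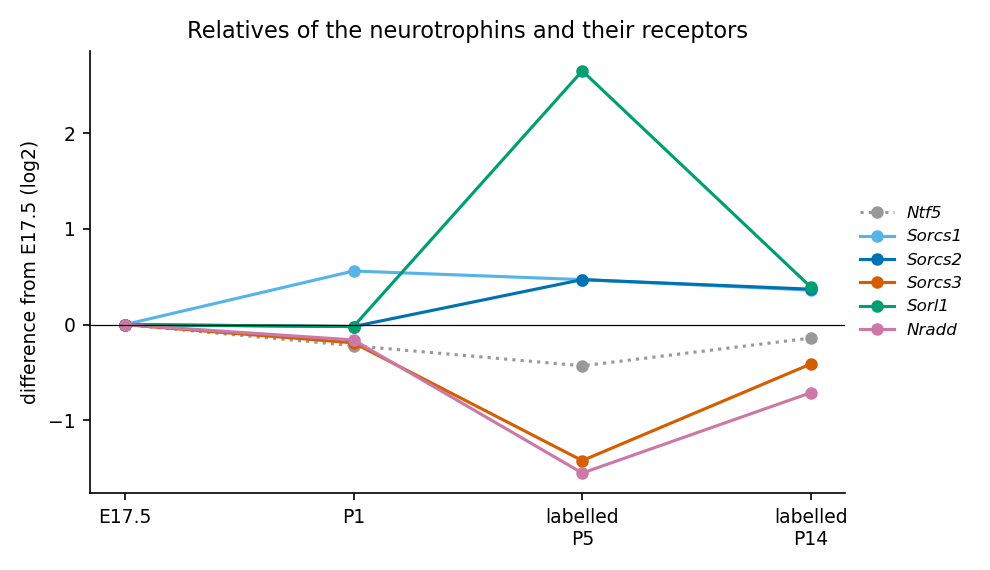
Difference of each further family gene from its own E17.5 value (vertical axis, log2 scale) on the 4 arrays in the order of their labelled ages; the dotted line is Ntf5, which did not pass the level filter. Sorl1 stands at 2.65 and Nradd at −1.55 on the P5-labelled array, the size of both being inexact as 1 of the 2 values lies under 8.41.

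The wider pathway was read from 6 lists, the family list among them, with 97 different genes past the filter. For P1 minus E17.5, 1 of the 97 was at least 2-fold higher and 1 lower (0.826% and 0.275% of all genes). For P5 minus P1, 12 were higher and 4 lower, against 8.96% and 3.94% of all genes. For P14 minus P5, 1 was higher and 9 were lower, against 2.16% and 4.5%. For P14 minus E17.5, 3 were higher and 1 lower, against 4.55% and 1.19%. For P5 minus E17.5, 16 were higher and 6 lower, against 11.3% and 5.5%, and for P14 minus P1, 2 were higher and none lower, against 1.37% and 0.101%. As a share of the 97, the genes 2-fold apart made up 2.06% for P1 minus E17.5, against 1.1% of all genes, 16.5% for P5 minus P1, against 12.9%, and 10.3% for P14 minus P5, against 6.66%. They made up 4.12% for P14 minus E17.5, against 5.74%, 22.7% for P5 minus E17.5, against 16.8%, and 2.06% for P14 minus P1, against 1.47%.

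The list of genes switched on by ERK and CREB, the outputs of TrkB signalling and of neuronal activity alike, had the largest median of the 6 for P5 minus P1. Its median was 0.69 over 17 genes, against 0.05 for all genes, with 6 at least 2-fold higher and none lower. These were Fos (2.21), Arc (2.05), Egr1 (2.02), Etv5 (1.44), Vgf (1.28) and Spry2 (1.13). Fos, Arc and Egr1 are immediate early genes, while Spry2 is a feedback inhibitor of receptor kinases. Without the level filter the median was 0.42 over 22 genes. Fos, Arc, Egr1 and Spry2 lay under 8.41 at P1, so that the size of their differences is inexact. The same holds for Sorl1, Pcsk1, Pcsk6 and Bhlhe40 in this pair of arrays. For P14 minus P5 the median of the list was −0.22, against −0.07 for all genes, with 4 at least 2-fold lower and none higher. For P14 minus P1, which leaves out the P5-labelled array, it was 0.24, against −0.01, with 2 of 17 higher and none lower.

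Vgf, a precursor of secreted neuropeptides, was the pathway gene at least 2-fold higher at P1. Its level was 8.68 at E17.5, 9.88 at P1, 11.16 on the P5-labelled array and 11.01 on the P14-labelled array. Its differences were 1.20 for P1 minus E17.5 and 2.33 for P14 minus E17.5. The Vgf order over the 4 arrays was that of Ntrk2, but P14 minus P5 was within 2 SD in both, at −0.15 and −0.16. In 63.0% of all genes past the filter P14 lay between P1 and P5, as in these 2. Arc, by contrast, had 7.91, 8.12, 10.17 and 8.32 and was high on the P5-labelled array alone. The ERK phosphatases Dusp1 and Dusp4 had the largest negative differences of this list for P1 minus E17.5, at −0.90 and −0.84. Its median for P14 minus E17.5 was 0.37, with 2 of 17 at least 2-fold higher, Vgf and Fos (1.36), and none lower. Fos lay under 8.41 at E17.5, at 7.22, so that the size of this difference is inexact.

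Adaptors and kinases downstream of the Trk receptors had a median of −0.02 over 35 genes for P5 minus P1, with 2 higher and 2 lower. The docking protein Gab1 (1.33) and the ERK kinase Map2k1 (1.17) were higher, and Cdk5r1, the activator of Cdk5 (−1.23), and Mapk7, the kinase ERK5 (−1.14), were lower. Shc3, a neuronal adaptor of Trk receptors, had 10.21 at E17.5, 10.90 at P1, 11.76 on the P5-labelled array and 11.60 on the P14-labelled array. It was the gene of this list at least 2-fold higher for P14 minus E17.5 (1.39). Like Bdnf and Ntrk2, it was lowest at E17.5 and next lowest at P1. The median levels of astrocyte, oligodendrocyte precursor, myelin and microglial markers shared that order. Those of immature neurons were instead highest at E17.5 and next highest at P1. The share of all genes with either order was not counted. For P14 minus E17.5 the median of the adaptor and kinase list was −0.14, against −0.08 for all genes.

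Genes for cleaving and releasing proneurotrophins had a median of 0.18 over 12 genes for P5 minus P1. The convertases Pcsk1 (2.20) and Pcsk6 (1.20) were higher, and none was 2-fold lower. Pcsk1 had 7.56 at E17.5, 7.54 at P1, 9.74 on the P5-labelled array and 8.48 on the P14-labelled array. Furin, the convertase of the secretory pathway, stayed between 9.58 and 9.82. Plat, tissue plasminogen activator, which starts the cleavage of proBDNF outside the cell, had 9.77, 10.36, 10.87 and 10.49. Cadps2, a vesicle priming factor linked to BDNF release, was the gene of the list at least 2-fold lower at P1, with 7.31 at P1 against 9.05 at E17.5. It passed the filter through E17.5 alone, so that the size of this difference is inexact.

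Partners of p75NTR had small differences. None of 15 was 2-fold apart for P5 minus P1 or P14 minus E17.5, with medians of −0.11 and −0.12. Tnfrsf19 (Troy), a receptor that can stand in for p75NTR beside the Nogo receptor, had the largest positive difference for P14 minus E17.5, at 0.83, and Traf6, an adaptor of p75NTR, the largest negative one, at −0.79. Among 13 regulators of Bdnf transcription, Bhlhe40 was 2-fold higher for P5 minus P1 (2.01) and none was lower, with a median of 0.06. Npas4, the activity-dependent factor that binds Bdnf promoters, had 7.86, 8.08, 8.75 and 8.54, and Creb1 had 10.73, 10.21, 10.16 and 10.14. The median of this list for P14 minus E17.5 was 0.12, with none 2-fold apart.

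**Figure D5:**
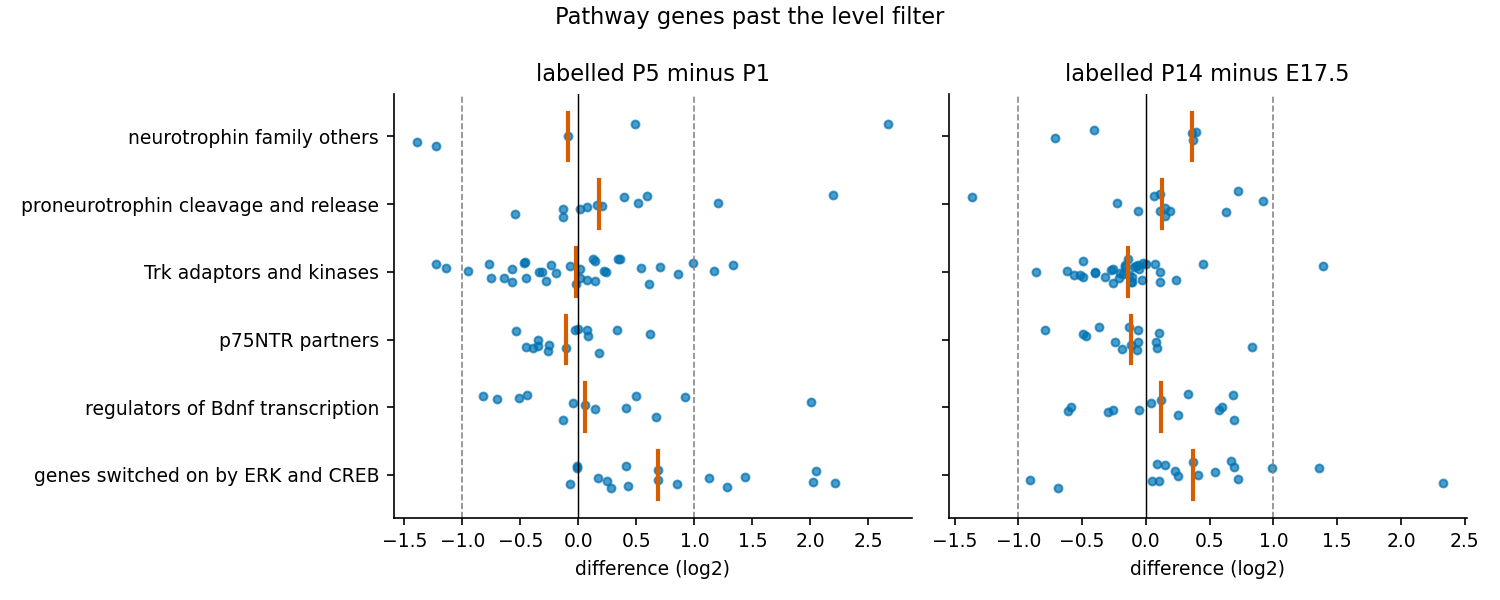
Differences on the log2 scale (horizontal axis) of pathway genes past the filter, 1 point per gene and 1 row per list, for P5 minus P1 (left) and P14 minus E17.5 (right); the thick bar is each list's median and dashed lines mark 2-fold. The bottom row, genes switched on by ERK and CREB, has medians of 0.69 and 0.37, the others lie nearer to 0 on the left.

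Cell type markers differed widely on the same pair of arrays as the pathway genes. For P5 minus P1 the medians were 4.32 over 11 myelin markers, 1.56 over 12 astrocyte markers, 1.46 over 9 precursor markers of oligodendrocytes, 0.97 over 7 microglial markers, 0.84 over 7 mural and meningeal markers and 0.44 over 8 endothelial markers. They were −2.84 over 9 markers of immature neurons and −0.96 over 7 of pontine and rhombic lip neurons. Lists with 3 or fewer members past the filter gave 0.88 for Schwann and neural crest cells, −2.20 for cholinergic, −0.61 for monoaminergic and −0.26 for cerebellar neurons. For P1 minus E17.5, which uses neither doubted array, the medians were 0.77 for astrocytes and −0.70 for immature neurons. They were 0.72 for oligodendrocyte precursors, 0.63 for microglia, 0.37 for myelin and −0.27 for pontine and rhombic lip neurons. Endothelial markers gave −0.145, and mural and meningeal ones −0.02. The short lists gave 0.32 for Schwann and neural crest cells, −0.06 for cholinergic, −0.50 for monoaminergic and 0.03 for cerebellar neurons. The part of these cell types in the differences of the neurotrophin genes was not tested.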

How the data were processed

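Expression was measured on 4 Affymetrix whole-transcript arrays, 1 per age. The values deposited for each probe set are log2 signals that the authors normalised with Affymetrix Expression Console, per the submitters' processing notes; the log2 scale is inferred from their range. How they were summarised and normalised is not given in the sources. Of 35556 probe sets, 21789 carried 1 symbol in the platform's gene table, and the probe set of highest mean over the 4 arrays stood for its gene. Positions come from the RefSeq table of GRCm38.p6 and serve as annotation only. The SD among probe sets of a gene was pooled over genes with several probe sets past the level filter; that over probe sets of similar level was added after seeing the data. Differences were taken with pandas 2.3.3 without rescaling, and the counting was tested on simulated data. No p-value was computed. The named genes were the 6 members, the family list (in which some items are not reported here), up to 3 genes of each pathway list in each direction when at least 2-fold apart, and the 3 genes nearest the member of widest range; other genes were named after their values were seen. The members, the 6 pathway lists and the 12 marker lists were chosen with earlier results of these data known. Alternatives covered the probe set choice, scaling, level filter, size threshold and the 2 doubted arrays.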

Additional observations from a re-analysis of the deposited data

How the results depend on the processing

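No paired analysis was possible because each age has 1 array. The count of members at least 2-fold apart stayed at 0 in all 6 pairs of arrays under the other probe set choices, quantile normalisation, median centring, no level filter, a stricter filter at 9.91 (which kept 3 of the 5 genes), and with either doubted array left out of the choice and filter. With the threshold at 1.5-fold it was 2 for P14 minus P5, 1 for P14 minus E17.5 and 1 for P5 minus E17.5. Since each member has 1 probe set, the probe set choices could not move its values. In 150 comparisons of a member's difference with its value under an alternative, none moved by more than 1 SD of the spread among probe sets. These include the comparisons under the other probe set choices, whose outcome was fixed, so that only those under another scaling could differ. The largest shift was 0.11. Even so, 8 of the 150 crossed 2 SD, in 6 of the 30 differences: Ntrk2 for P1 minus E17.5 (0.26 with quantile normalisation, 0.28 on the median of genes past the filter) and P5 minus P1 (0.38 with median centring), Ntrk3 for P1 minus E17.5 (0.22 with median centring) and P5 minus E17.5 (−0.38 on the filtered median), Bdnf for P5 minus P1 (0.27 on the filtered median) and Ngfr for P14 minus E17.5 (0.28 with quantile normalisation, 0.31 on the filtered median). Scaling on the median of the genes past the filter, added after seeing the data, turned the sign of Sort1 for P5 minus P1 to −0.03, and moved the median of all genes in that pair by −0.11. Of the list medians, 101 of 108 moved by less than 1 SD; the other 7 moved when the level filter was dropped. Of the members' ranges, those of Ntrk3 and Ngfr moved by more without a doubted array. By Pearson's r among genes of a 2-fold range, 0 of the 3 genes most like Ngfr were named again. Counts of pathway genes stayed within 1.5 times. Background signal was not measured, which limits Bdnf at E17.5 and P1 and Ngfr on the P5-labelled array.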
